A study of Mus musculus with 9 samples.

Results

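The genes described here are 56 mouse homeobox genes that lie outside the Hox clusters and direct the patterning of the embryo: the Lhx, Nkx, Irx, Dlx, Otx, Emx, Msx, En, Gbx, Bar, Pitx, Vax, Evx and Meox families with Six2, Six3, Six4, Six6, Gsc and Bsx. The genes were listed by name. For each, every CpG from 2000 bases outside one gene end to 2000 bases outside the other was taken if it carried at least 1 read in each of 9 libraries, and a gene was kept with 10 or more such CpGs. Of the 56 genes, 55 passed, against 14684 of the 21627 protein-coding genes in the annotation. Meox2 was the gene that did not pass, with 6 CpGs. The 55 genes held 6086 CpGs, from 10 in Irx6 to 249 in Lhx2, with a median of 107 CpGs per gene against 56 over all genes that passed.

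DNA methylation was read by reduced representation bisulphite sequencing (RRBS), which cuts DNA at CCGG and so samples CpG-rich stretches, in Abl.1 cells. Abl.1 is an immortalised clonal B cell line from a female F1 hybrid of the 129S1/SvImJ and CAST/EiJ strains. Cells were kept in medium with 1% DMSO (control, 2 libraries) or exposed to 5-aza-2'-deoxycytidine (5-aza-dC), 0.2 µM (2 libraries), 2 µM (3 libraries) or 10 µM (2 libraries), and live cells were collected by density gradient on day 2. All 4 groups are of the same clone, so the values describe 1 cell line, and reads from the parental genomes were not separated. The series title names the mechanism of monoallelic expression as the question.

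Homeobox genes encode transcription factors that bind DNA through a homeodomain and set regional identity in the embryo. Their starts usually lie in CpG-rich DNA that polycomb complexes hold silent in tissues where the gene is not used, and in many cultured and cancer cell lines these same starts carry DNA methylation. 5-aza-dC is a cytidine analogue that is built into newly copied DNA and traps DNA methyltransferases there, so methylation can be lost as cells divide. Most gene starts in mouse cells are free of methylation and most gene bodies carry it.

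Each library listed 1531208 to 2053530 CpG positions with 8590883 to 16495535 reads, and the median CpG had 3 to 5 reads. The shallowest were the second 10 µM library and the second DMSO library (8590883 and 9422785 reads). The labels call the samples of a group library preparation replicates and do not say whether they came from separate cultures, so p-values measure the spread between these libraries, which may be technical. Of the promoters of 11 B cell marker genes, 3 were covered, at 0.533%, 1.11% and 43.8% in DMSO, and no promoter of the T cell or myeloid lists was covered. Of the 7 T cell marker genes, 1 without a listed start had its gene ends covered, at 0.503% in DMSO. The covered markers thus do not separate these lineages. RRBS does not show which cells carry a mark, and transcription was not measured here.

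A promoter below means all bases within 1000 of any listed start of the gene, and a body means the rest of the gene. For 16 of the 55 genes the annotation used lists no start, and both gene ends, each with 1000 bases on either side, stand in for the promoter. A level is the mean percent methylation over the CpGs of a window with at least 5 CpGs and at least 10 reads in every library. This gave 39 promoters, 16 pairs of ends, 53 bodies and 24 flanks among these genes.

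Promoter stretches are shown for 4 genes that span the range of DMSO levels, from the 94.5% of Nkx6-2 to the 9.16% of Lhx2. Each line gives the 250 bases before the start, 5′ to 3′ on the gene's strand, from RefSeq on GRCm38.p6, and capitals mark the CpGs that were read in all 9 libraries. Nkx6-2, chr7:139582798-139583047 on the minus strand, encodes a factor of ventral neural tube and oligodendrocyte development. Barx1, chr13:48662786-48663035 on the plus strand, acts in stomach and tooth formation. Lhx2, chr2:38339031-38339280 on the plus strand, upstream of the first of 2 listed starts, is needed for the eye and forebrain. Dlx1, chr2:71529195-71529444 on the plus strand, is a factor of forebrain interneurons.
Nkx6-2: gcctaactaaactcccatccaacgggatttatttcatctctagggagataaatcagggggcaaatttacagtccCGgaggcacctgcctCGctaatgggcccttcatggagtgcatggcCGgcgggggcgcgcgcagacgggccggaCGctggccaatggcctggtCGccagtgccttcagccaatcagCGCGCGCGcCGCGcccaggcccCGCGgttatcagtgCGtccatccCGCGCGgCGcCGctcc
Barx1: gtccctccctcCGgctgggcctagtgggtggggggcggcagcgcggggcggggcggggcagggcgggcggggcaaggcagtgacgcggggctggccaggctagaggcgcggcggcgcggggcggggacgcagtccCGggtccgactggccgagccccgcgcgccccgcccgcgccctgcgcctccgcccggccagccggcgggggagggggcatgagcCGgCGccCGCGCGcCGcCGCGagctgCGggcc
Lhx2: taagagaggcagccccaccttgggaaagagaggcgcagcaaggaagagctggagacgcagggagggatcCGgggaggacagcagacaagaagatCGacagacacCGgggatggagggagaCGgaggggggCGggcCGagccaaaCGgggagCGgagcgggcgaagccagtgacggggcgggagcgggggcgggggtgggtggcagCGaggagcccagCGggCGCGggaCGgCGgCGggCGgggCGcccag
Dlx1: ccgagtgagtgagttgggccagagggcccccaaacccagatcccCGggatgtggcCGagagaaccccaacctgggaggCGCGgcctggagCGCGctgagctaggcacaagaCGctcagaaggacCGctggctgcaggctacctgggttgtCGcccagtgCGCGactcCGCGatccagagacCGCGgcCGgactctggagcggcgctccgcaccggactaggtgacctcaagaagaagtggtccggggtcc
In the Nkx6-2 stretch 19 of 26 CpGs were read, and their mean level was 94.2% ± 3.47 (SD, n = 2) in DMSO, 83.4% ± 3.95 (n = 2) after 0.2 µM, 70.3% ± 9.70 (n = 3) after 2 µM and 77.3% ± 18.7 (n = 2) after 10 µM. The 11 of 40 CpGs read in Barx1 stood at 86.1% ± 4.20, 65.2% ± 6.68, 66.2% ± 15.5 and 58.6% ± 28.1 in the same order. The 17 of 25 CpGs read in Lhx2 stood at 3.37% ± 0.116, 0% (both libraries), 1.80% ± 1.98 and 0% (both libraries). These stretches are therefore near full, near full and near empty before treatment, although all 3 are CpG-rich. The 16 of 22 CpGs read in Dlx1 had a wide spread between libraries, at 10.7% ± 15.2 in DMSO and 48.4% ± 33.1 after 10 µM. The lowest number of reads behind a library's value was 30 in Lhx2, 32 in Nkx6-2, 53 in Barx1 and 60 in Dlx1.

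In untreated cells the starts of these developmental regulators were methylated at an intermediate to high level. The median DMSO level was 53.6% over the 39 promoters and 54.5% over the 16 pairs of ends, against 0.947% over the 10194 promoters and 5.95% over the 2535 pairs of ends of all genes. Of the 39 promoters, 23 stood at 50% or more and 6 at 80% or more, and Lhx2 was the only promoter under 10%. Over all genes 7062 of 10194 promoters were under 10% and 1651 were at 50% or more. Gene bodies went the other way, with a DMSO median of 51.8% over the 53 bodies of these genes and 77.9% over 9201 bodies. The median level of these genes was thus similar at start and body, where over all genes the medians lay far apart.

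The level along the gene shows the same in bins of 500 bases from the start. Over all genes the median bin level in DMSO was 60.2% at 2000 to 1500 bases upstream, 0.595% in the 500 bases before the start and 86.0% at 4500 to 5000 bases downstream. For the homeobox genes, the bins before and after the start stood at 42.0% and 54.2%, and all bins lay between 34.0% and 61.2%. The number of homeobox genes behind a bin ranged from 8 to 32.

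**Figure D1:**
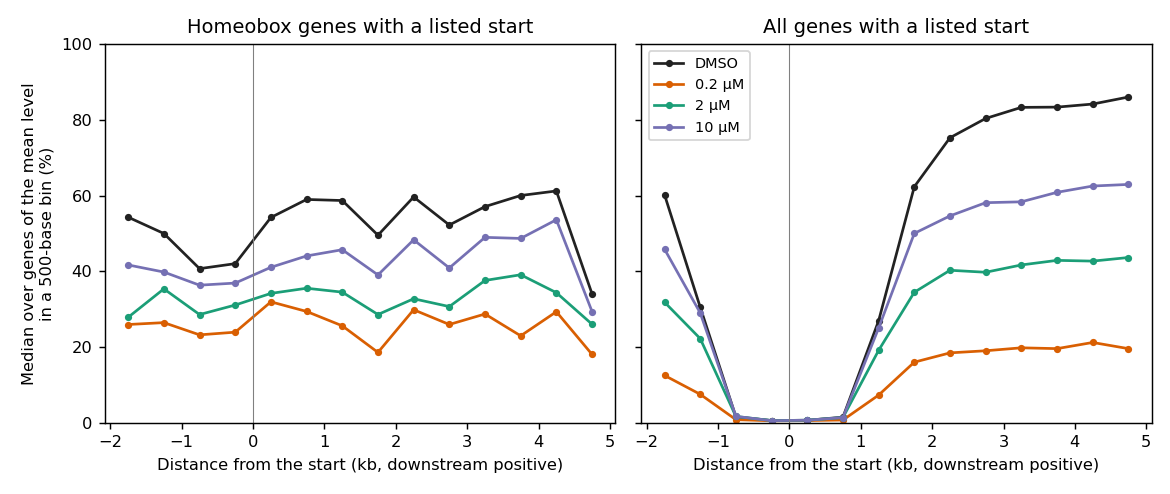
Median CpG methylation (percent, y axis) in bins of 500 bases against distance from the annotated start (x axis), for the homeobox genes and for all genes in each of the 4 groups. In DMSO the median over all genes drops to 0.595% before the start, while the homeobox genes stay between 34.0% and 61.2% throughout.

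Single CpGs were counted by class where the pooled reads of every group reached 10, which 1019 of the 1969 CpGs in the homeobox promoters did. In DMSO 23.4% of them were under 20% methylated, 51.3% were between 20% and 80% and 25.3% were at 80% or more. Over the promoters of all genes 86.9% of 338813 CpGs were under 20%, and 8.55% lay between 20% and 80%. At 0.2, 2 and 10 µM the share of homeobox promoter CpGs at 80% or more was 6.77%, 0.981% and 6.58%. The share between 20% and 80% was 53.3%, 66.5% and 67.5%. Nearly all fully methylated CpGs were thus gone after 2 µM, while the middle class grew. These shares pool the libraries of a group, differ in depth (medians of 19, 23, 38 and 20 pooled reads for DMSO, 0.2, 2 and 10 µM) and carry no replicate error.

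The sequence of the homeobox starts was close to that of other starts. Over 300 bases, from 250 before to 50 after the start, the median GC content was 63.3% for the 39 genes and 61% for 11669 genes. Both sets had a median of 20 CG dinucleotides, and the ratio of observed to expected CG was 0.767 and 0.746. The letters CCGG, a palindrome and so the same on both strands, occurred in 34 of 39 homeobox promoters (87.2%) and in 81.2% of all. The methylated ones differed more: the 23 homeobox promoters at 50% or more in DMSO had a median ratio of 0.838, against 0.637 for the 1651 such promoters of all genes, and the 6 at 80% or more had 0.90 against 0.630 for 746. The ratio of the methylated homeobox starts was thus above the median over all starts, and that of the other methylated starts was below it, which was measured but not tested.

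After 0.2 µM 5-aza-dC, homeobox promoters lost methylation almost throughout. All 39 had a lower mean than DMSO, 32 of the 39 passed the test and none rose, where 24.5% of all promoters passed as lower and 0.157% as higher. Most promoters of all genes had little methylation to lose, and at like DMSO levels the shares called lower were closer: 76.9% of 13 homeobox promoters and 64.1% of 911 at 20% to 50%, 88.2% of 17 and 90.6% of 905 at 50% to 80%, and 100% of 6 and 97.7% of 746 at 80% or more. Called means an adjusted p under 0.05 in a test of methylated and unmethylated reads, moderated with limma and adjusted by Benjamini-Hochberg over all 24419 windows, with the same sign in the mean level. The median change was a drop to 64.1% of the DMSO level. After 2 µM 28 of 39 fell (18.2% of all promoters) and none rose (0.235%), and after 10 µM 11 fell (7.5%) and 1 rose, Dlx1 (0.334%). The median levels were 28.6%, 34.0% and 42.1% after 0.2, 2 and 10 µM. The 3 comparisons share the DMSO libraries, so their counts are not independent of each other.

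The pairs of ends, for genes without a listed start, behaved alike: 15 of 16 fell after 0.2 µM (34.9% of all ends), 13 after 2 µM (24.3%) and 3 after 10 µM (9.03%), and their medians were 25.5%, 31.2% and 42.8%. With promoters and ends together, the shares called lower after 0.2 µM were closer at like DMSO levels. They were 77.8% against 64.2% over all genes at 20% to 50%, and 90.9% against 91.4% at 50% to 80%. At 80% or more they were 100% against 97.6%. The libraries of each group agreed on the median promoter. It was 53.9% and 52.6% in the DMSO libraries, 33.2% and 29.3% after 0.2 µM, 31.0%, 34.7% and 32.9% after 2 µM and 43.4% and 44.1% after 10 µM. Every treated library thus lay under both DMSO libraries, and the 10 µM libraries lay between the DMSO and the other treated ones. In 36 of 39 promoters both 0.2 µM libraries were under both DMSO libraries, where 50.0% of all promoters did so. That count was 32 after 2 µM (34.4%) and 24 after 10 µM (31.7%). These shares over all promoters were not matched for DMSO level.

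**Figure D2:**
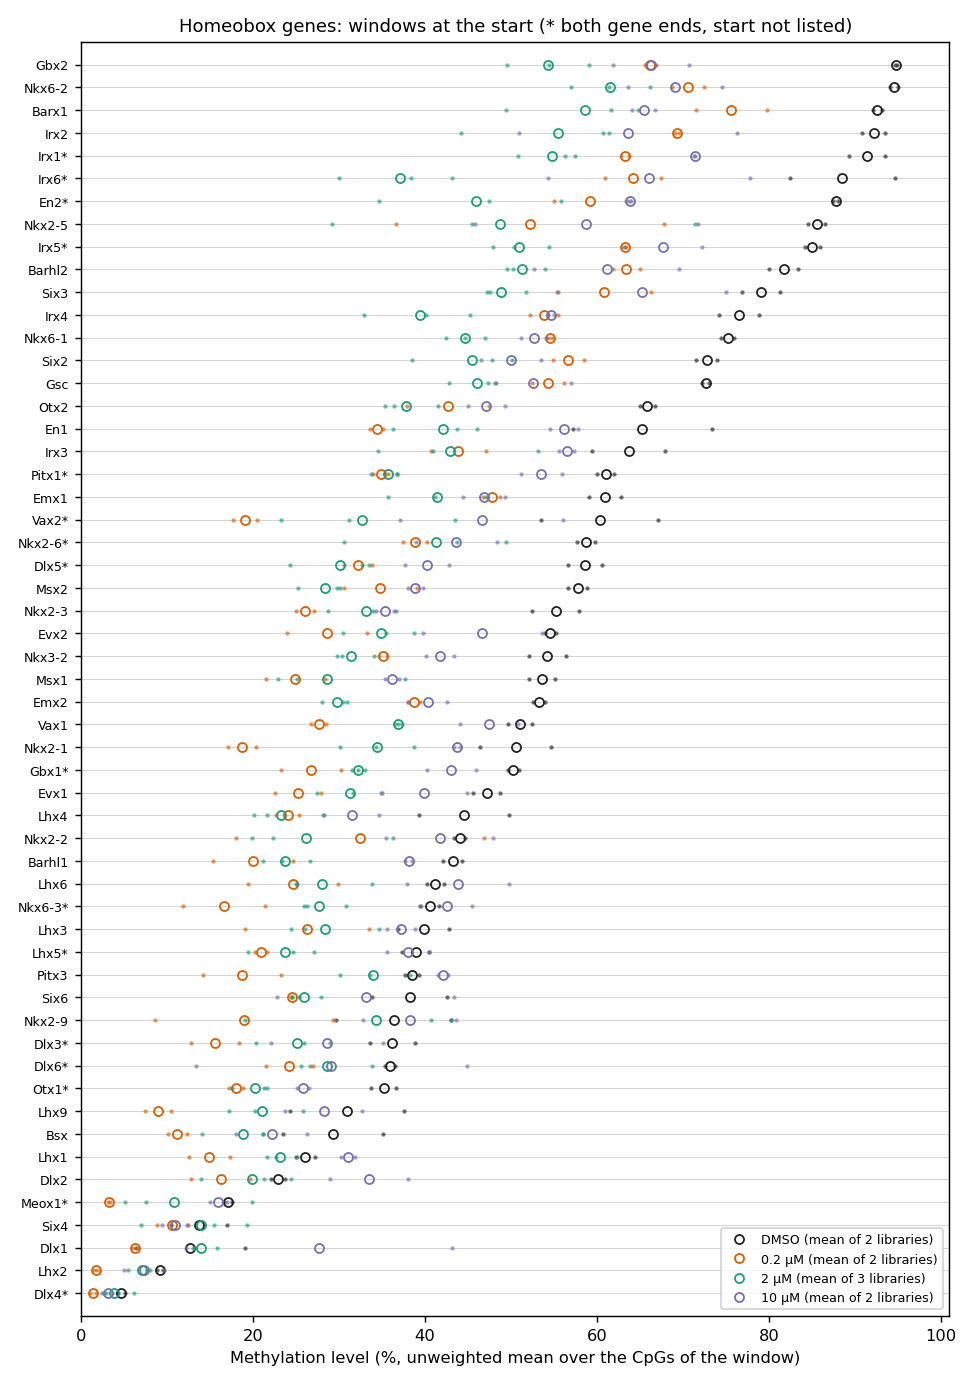
Methylation level (percent, x axis) at the start of each of the 55 homeobox genes (y axis, ordered by DMSO level, an asterisk marking gene ends), with small points for the 9 libraries and rings for the group means. Gbx2, Nkx6-2, Barx1 and Irx2 start above 92% in DMSO and are lowest after 2 µM, while Lhx2 starts at 9.16% and is lowest after 0.2 µM.

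Gbx2 (chr1:89927962-89931176, minus strand), which sets the boundary between midbrain and hindbrain, had the highest promoter level in DMSO. Its 40 promoter CpGs stood at 94.9% and 94.7% in the DMSO libraries, 65.6% and 66.9% after 0.2 µM, 59.1%, 49.5% and 54.5% after 2 µM and 70.7% and 61.9% after 10 µM. No treated library came near the DMSO ones, and every 2 µM library was under both 0.2 µM libraries. The promoter fell by 28.6 points (SE 5.59, adjusted p = 2.73e-05) after 0.2 µM, by 40.4 points (SE 5.11, adjusted p = 2.8e-07) after 2 µM and by 28.5 points (SE 5.59, adjusted p = 0.00136) after 10 µM. A gene listed as protein-coding, LOC102637806, overlaps this span.

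Nkx6-2 (chr7:139579376-139582797, minus strand), whose sequence is given above, was also lowest after 2 µM, over 89 promoter CpGs. The levels were 94.1% and 95% in DMSO, 68.7% and 72.5% after 0.2 µM, 61.4%, 66.2% and 57.0% after 2 µM and 63.6% and 74.6% after 10 µM. The drop was largest after 2 µM, at 33.0 points (SE 5.90, adjusted p = 7.58e-08), and the 10 µM libraries overlapped those of the other doses but lay under both DMSO libraries. The span overlaps Inpp5a, which is protein-coding.

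Barx1 (chr13:48663036-48666507, plus strand) had 57 promoter CpGs at 93.2% and 92.1% in DMSO, 71.5% and 79.8% after 0.2 µM, 49.4%, 64.7% and 61.7% after 2 µM and 64.1% and 66.7% after 10 µM. Here 10 µM left a lower level than 0.2 µM, and the change against DMSO was -17.0 points (SE 6.86, adjusted p = 0.000243) after 0.2 µM and -27.2 points (SE 6.86, adjusted p = 2.61e-05) after 10 µM. The promoter of Irx2, an Iroquois gene of early patterning, went from 90.9% and 93.5% to 69.1% and 69.6% after 0.2 µM and to 44.2%, 60.7% and 61.4% after 2 µM. Its 10 µM libraries disagreed, at 50.9% and 76.4%, yet both were below DMSO (adjusted p = 0.000239). The calls of Gbx2, Nkx6-2, Barx1 and Irx2 against DMSO were kept when any single library was left out.

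Further genes with highly methylated promoters fell less evenly. The promoter of Irx4, a ventricle-restricted Iroquois gene in the heart, stood at 76.6% ± 3.32 (SD, n = 2) in DMSO, 53.8% ± 2.35 (n = 2), 39.4% ± 6.17 (n = 3) and 54.6% ± 0.518 (n = 2). Its drop of 22.7 points after 0.2 µM was no longer called without the first DMSO library (adjusted p = 0.122) or the second 0.2 µM library (adjusted p = 0.125). After 10 µM its call was lost when any one DMSO or 10 µM library was left out (adjusted p from 0.0901 to 0.237). Barhl2, a gene of retina and forebrain, went from 81.7% ± 2.31 to 63.4% ± 2.21, 51.3% ± 2.36 and 61.1% ± 11.9, and its 10 µM call was lost without the first 10 µM library (adjusted p = 0.0808). Six3, a regulator of eye and forebrain, went from 79.1% ± 3.16 to 60.9% ± 7.68, 48.8% ± 2.52 and 65.2% ± 13.9, with no call after 10 µM (adjusted p = 0.109). After 0.2 µM its call was lost without the first DMSO library (adjusted p = 0.161) or the second 0.2 µM library (adjusted p = 0.151).

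Nkx2-5, a heart gene, rested on 12 promoter CpGs and showed the widest spread of the 8 most methylated promoters. It stood at 84.6% and 86.5% in DMSO, 36.6% and 67.8% after 0.2 µM, 71.4%, 45.5% and 29.2% after 2 µM and 45.8% and 71.7% after 10 µM. All treated libraries were below both DMSO libraries, but they spread over more than 40 points. The call after 0.2 µM was lost without the first 0.2 µM library (adjusted p = 0.0836) and that after 2 µM without the first DMSO library (adjusted p = 0.0638). Nkx6-1, a factor of motor neurons and pancreatic beta cells, and Six2, which keeps kidney progenitors, were tighter. Nkx6-1 fell from 75.2% ± 1.02 to 54.6% ± 0.293, 44.7% ± 2.32 and 52.6% ± 2.04, and Six2 from 72.8% ± 1.70 to 56.7% ± 2.59, 45.4% ± 6.15 and 50.0% ± 4.96. Both were called at all 3 doses, also when any single library was left out.

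Whether a promoter was lowest after 0.2 or after 2 µM went with its level before treatment. Of the 39 promoters, 20 had their lowest mean after 0.2 µM and 19 after 2 µM, where 5038 and 2039 of all 10194 promoters did. The 6 at 80% or more in DMSO had medians of 92.4%, 67.8%, 54.9% and 64.5% from DMSO to 10 µM, and all 6 were lower after 2 than after 0.2 µM. The 13 between 20% and 50% had medians of 38.5%, 19.98%, 25.9% and 37.2%, and 2 of them (15.4%) were lower after 2 than after 0.2 µM, as were 17.1% of the 911 such promoters of all genes. Of the 17 between 50% and 80%, 11 (64.7%) were lower after 2 µM, against 38.7% of 905. With the ends included, all 10 of these genes at 80% or more were lower after 2 µM, by a median of 12.3 points.

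The 2 µM group was also tested directly against 0.2 µM. In the promoters 8 of 39 were called lower (1.69% of all promoters): Gbx2, Nkx6-2, Barx1, Irx2, Irx4, Barhl2, Nkx6-1 and Six2. Lhx2 and Nkx2-1 were called higher (4.17%), and Nkx2-1 lost its call without any one 0.2 or 2 µM library or the first DMSO library (adjusted p from 0.0522 to 0.181). Of the 10 promoters or ends at 80% or more, 7 were called lower, against 16.6% of the 1011 such windows of all genes, of which 50.8% had a lower mean. Barx1 kept its call (-17.0 points, SE 6.26, adjusted p = 0.000759) when any single library was left out. The other 7 lost theirs without the first 0.2 µM library and also without the second. Without the first or the second 0.2 µM library only 1 promoter was called lower, and without the second or the third 2 µM library 4 and 3 were. Among the ends, Irx5 and En2 were called lower (1.34%) and Dlx3 and Meox1 higher (7.57%), and the calls of Irx5, En2, Dlx3 and Meox1 were each lost without either 0.2 µM library, among others (adjusted p from 0.0811 to 0.374).

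The number of CpGs behind a window moved with this order. Among windows at 80% or more in DMSO with 40 or more CpGs, 8 of 8 homeobox starts and 89.2% of 287 windows of all genes were lower after 2 than after 0.2 µM, and 44.6% of the 287 were called lower. With 5 to 19 CpGs, 2 of 2 homeobox windows were lower but 22.6% of 486 of all genes were. The part of CpG number in the order of the doses was not tested.

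**Figure D3:**
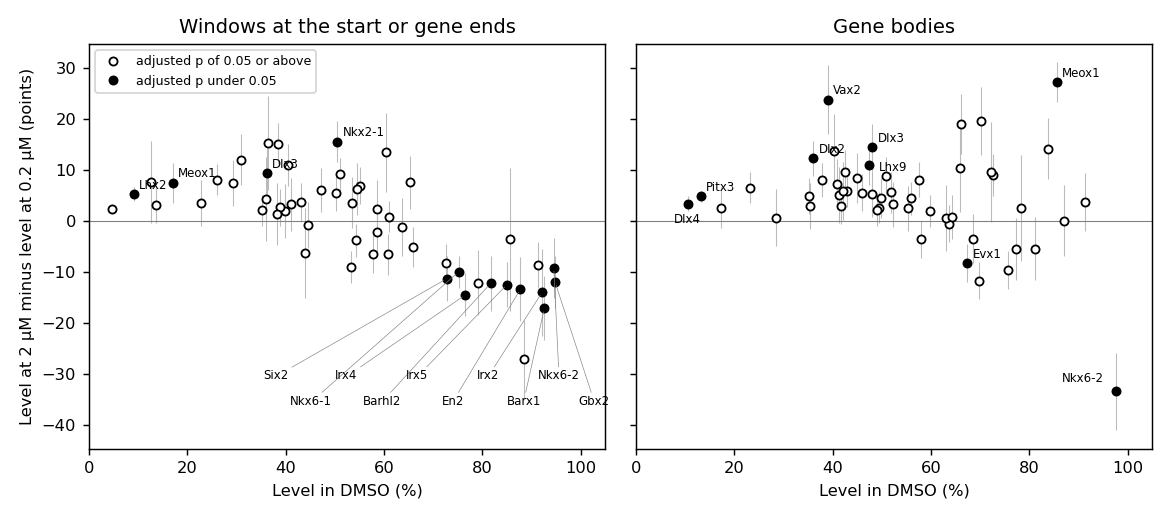
Change from 0.2 to 2 µM in percentage points (y axis) against the DMSO level in percent (x axis), for the promoters and ends (left) and the bodies (right) of the homeobox genes, with bars of 1 SE and with called windows filled and named. On the left, all 10 windows at 80% or more in DMSO lie below 0, and most windows at 20% to 50% lie above it.

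The Iroquois genes, which pattern the neural plate, heart and limbs and lie in paired clusters, stood at 63.7% or more in DMSO at every start or pair of ends. The ends of Irx1 stood at 93.5% and 89.4% in DMSO, 62.8% and 63.8% after 0.2 µM, 56.3%, 50.8% and 57.4% after 2 µM and 71.3% and 71.5% after 10 µM. The groups did not overlap, and the changes of -28.1, -36.6 and -20.04 points were called with adjusted p of 6.78e-07, 4e-08 and 0.00084. Irx5 followed with 85.0% ± 1.22, 63.3% ± 0.0707, 50.9% ± 3.29 and 67.6% ± 6.43, and En2, a midbrain and cerebellar gene, with 87.8% ± 0.474, 59.2% ± 5.93, 45.9% ± 10.7 and 63.9% ± 0.191. Irx1, Irx5 and En2 were singled out after their values were seen. Irx6 had 9 CpGs in this window and went from 82.4% and 94.7% to 43.1%, 38.4% and 29.96% after 2 µM, then stood at 54.3% and 77.8% after 10 µM. That rise from 2 to 10 µM was 28.9 points (SE 7.74, adjusted p = 0.0389) and was lost when any one of the 2 µM or 10 µM libraries or the first DMSO library was left out (adjusted p from 0.0517 to 0.230).

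Only a few of these starts were lowly methylated before treatment. The promoter of Lhx2, with 122 CpGs around 2 starts, stood at 8.81% and 9.50% in DMSO, 1.5% and 1.84% after 0.2 µM, 7.67%, 7.95% and 5.46% after 2 µM and 9.61% and 4.96% after 10 µM. The 0.2 µM libraries stood apart from all others, and the level fell by 7.49 points from DMSO (SE 1.52, adjusted p = 0.000165), while 2 µM against DMSO did not pass the test (adjusted p = 0.395). The start at the 5′ end was at 5.91% ± 0.522 and the downstream one at 12.9% ± 0.459 in DMSO. The rise of Lhx2 from 0.2 to 2 µM, 5.36 points (adjusted p = 0.00645), was not called without the first or the second 0.2 µM library (adjusted p = 0.0695 and 0.0573).

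The promoter of Six4, a muscle gene, stood at 13.7% ± 4.62 (SD, n = 2), 10.6% ± 2.53 (n = 2), 13.9% ± 6.32 (n = 3) and 10.9% ± 2.08 (n = 2) from DMSO to 10 µM, with no call at any dose and overlapping libraries. Six4 was chosen after its values were seen, as were Dlx1 and Dlx2 promoters and the ends of Dlx4. The ends of Dlx4 stood at 4.67% ± 0.613 in DMSO and 1.35% ± 0.525 after 0.2 µM (adjusted p = 0.000628). The Dlx1 promoter was at 19% and 6.35% in DMSO, 5.97% and 6.54% after 0.2 µM, 13.2%, 15.8% and 12.9% after 2 µM and 12.2% and 43.1% after 10 µM. The call of Dlx1 as higher after 10 µM (adjusted p = 0.0295) therefore rested on the second 10 µM library, without which the change was -0.527 points (adjusted p = 0.585). It was also lost without the first or the second DMSO library (adjusted p = 0.0509 and 0.245). The neighbouring Dlx2 promoter, transcribed from the other strand, stood at 22.1% and 23.7% in DMSO and at 28.9% and 38% after 10 µM, which did not pass the test (adjusted p = 0.432).

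The bodies of homeobox genes started lower than those of other genes, and their median over all bodies was similar after 0.2 µM. At like DMSO levels of 20% or more, their median after 0.2 µM was higher than over all genes. It was 19.5% against 12.3% for bodies at 20% to 50%, and 35.5% against 24.2% at 50% to 80%. For bodies at 80% or more it was 58.1% against 29.99%. After 0.2 µM 48 of 53 bodies fell (86.3% of all bodies) and none rose (0.0% of all bodies). After 2 µM 40 fell (72.5%) and after 10 µM 10 fell (33.0%). Of the homeobox bodies 11.3% stood at 80% or more in DMSO, against 46.0% of all bodies. At like DMSO levels the shares called lower after 10 µM were not smaller. They were 4.55% of 22 homeobox bodies and 0.448% of 1116 of all genes at 20% to 50%. At 50% to 80% they were 22.7% of 22 and 19.2% of 3117, and at 80% or more 66.7% of 6 and 57.5% of 4235. The size of the change gave another order. The median changes in these classes were -6.50, -10.6 and -10.9 points, against -5.41, -12.4 and -19.1 points over all genes. Homeobox bodies at 50% or more in DMSO thus fell by less at the median, most clearly at 80% or more. The median levels were 51.8%, 25.7%, 34.5% and 42.9% from DMSO to 10 µM, against 77.9%, 24.9%, 43.6% and 60.6% over all genes. In all 53 bodies both 0.2 µM libraries were under both DMSO libraries (96.8% of all bodies), and this held for 48 bodies after 2 µM (91.9%) and 41 after 10 µM (76.9%). The lowest mean was after 0.2 µM for 43 of 53 bodies, after 2 µM for 9 and after 10 µM for 1, while 8513 of 9201 bodies of all genes were lowest after 0.2 µM.

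Meox1 (chr11:101877510-101894354), a somite gene, had the largest drop of any homeobox body after 0.2 µM. Its 54 body CpGs stood at 86.1% and 85.0% in DMSO, 22.8% and 26.3% after 0.2 µM, 52.8%, 46.4% and 56.3% after 2 µM and 76.3% and 76.3% after 10 µM. The groups were fully separate, and among the treated groups the level was higher at each higher dose. The drop after 0.2 µM was 61.0 points (SE 4.29, adjusted p = 5.22e-10), and the level rose by 27.3 points from 0.2 to 2 µM (adjusted p = 0.00037) and by 24.4 points from 2 to 10 µM (adjusted p = 0.00137). These calls were kept when any single library was left out, but after 10 µM the level fell by 9.29 points against DMSO (adjusted p = 0.0181), and this call was lost without the first DMSO library, the second DMSO library or the second 10 µM library (adjusted p from 0.0894 to 0.101). Its ends were low throughout, at 17.1% ± 0.629 in DMSO.

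The bodies of Gsc, the organiser gene goosecoid (chr12:104471209-104473236, minus strand), and Gbx2 fell by 45.8 and 43.8 points after 0.2 µM, next after Meox1 and Gbx1. Gsc stood at 66.7% and 77.8% in DMSO, 25.3% and 27.5% after 0.2 µM, 37.3%, 16.5% and 54.6% after 2 µM and 67.0% and 58.3% after 10 µM. Its 2 µM libraries spread so far that they took in the 0.2 µM values. The Gbx2 body stood at 76.6% and 90.7% in DMSO, 42.0% and 37.7% after 0.2 µM, 57.2%, 57.7% and 47.5% after 2 µM and 73.0% and 83.3% after 10 µM. So the body of Gbx2 was lowest after 0.2 µM where its promoter was lowest after 2 µM. Both bodies were called lower after 0.2 µM and 2 µM, and higher after 10 than after 2 µM (adjusted p = 0.00193 for Gsc and 0.00224 for Gbx2), also when any single library was left out.

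**Figure D4:**
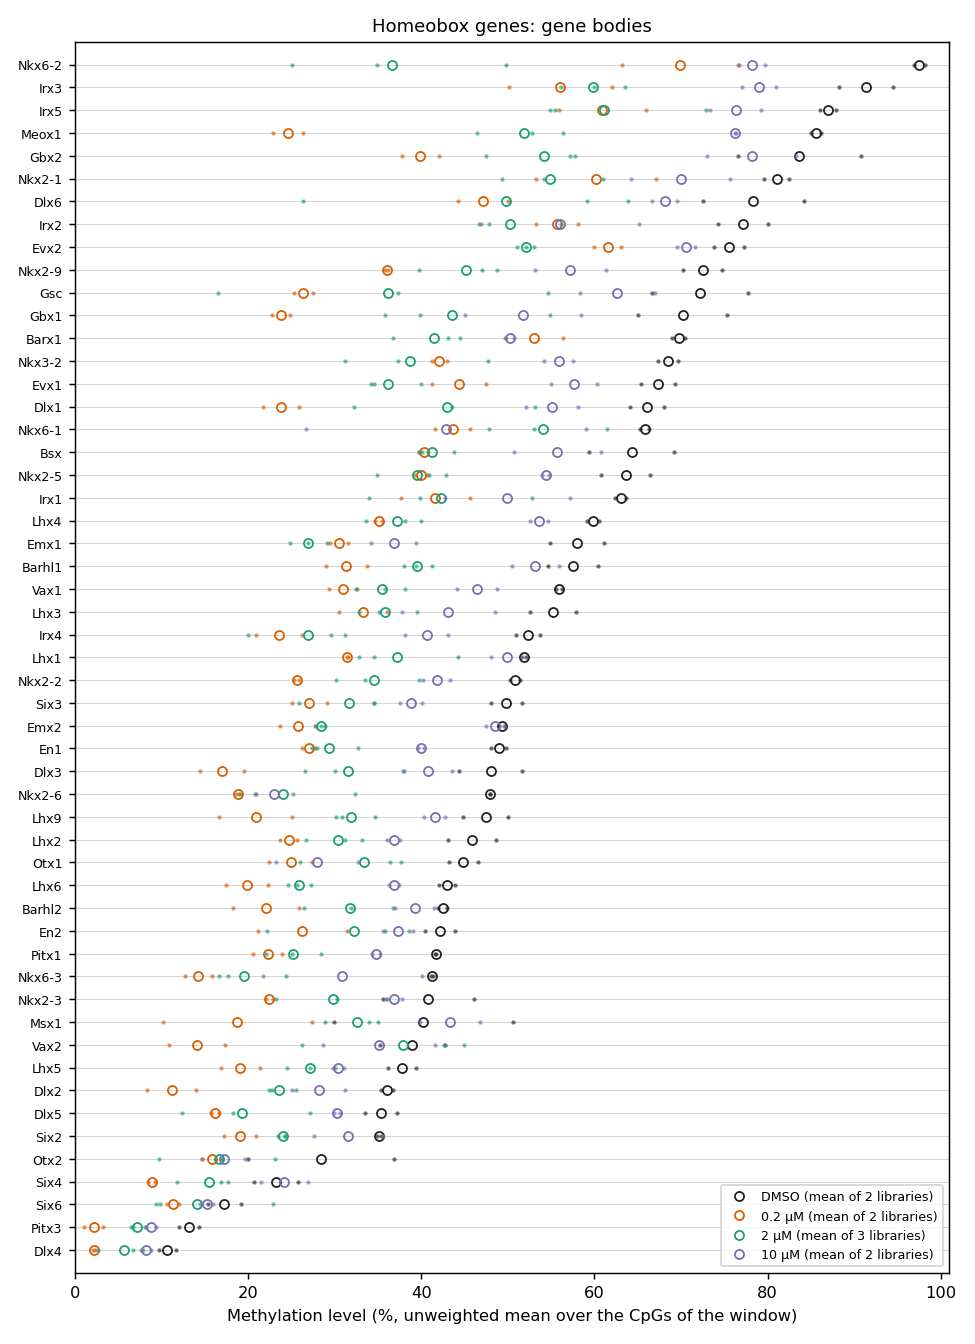
Methylation level (percent, x axis) in the bodies of 53 homeobox genes (y axis, ordered by DMSO level), with small points for the 9 libraries and rings for the group means. Meox1 falls from 85.6% to 24.6% after 0.2 µM and stands at 76.3% after 10 µM, while the Nkx6-2 body is lowest after 2 µM.

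The other large drops after 0.2 µM were in the bodies of Gbx1, Dlx1, Nkx2-9, Irx3 and Dlx6. Gbx1, on 9 CpGs, had the drop next to that of Meox1. It went from 70.2% ± 7.26 (SD, n = 2) to 23.8% ± 1.42 (n = 2), and its 2 µM call was lost without either DMSO library or the second or the third 2 µM library (adjusted p from 0.0642 to 0.166). The Dlx1 body went from 66.1% ± 2.75 to 23.8% ± 2.95, then 43.0% ± 10.5 and 55.1% ± 4.27, and its 2 µM call was lost without either DMSO library or the first 2 µM library (adjusted p from 0.0635 to 0.0826). Nkx2-9, a ventral neural tube gene, went from 72.5% ± 3.20 to 36.0% ± 0.299, 45.2% ± 4.83 and 57.2% ± 5.77. Irx3 went from 91.3% ± 4.38 to 56.1% ± 8.44, 59.8% ± 3.68 and 79.0% ± 2.77. Dlx6, a gene of jaw and limb on 12 CpGs here, went from 78.4% ± 8.19 to 47.1% ± 4.06, and its 2 µM libraries ran from 26.4% to 63.9%. The Dlx6 calls after 0.2 and 2 µM were each lost without the second DMSO library (adjusted p = 0.0852 and 0.134), after 0.2 µM also without the first 0.2 µM library (0.0735) and after 2 µM without the first 2 µM library (0.139).

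The smallest drops after 0.2 µM among bodies at 50% or more in DMSO were in Evx2, Barx1, Lhx1, Nkx2-1 and Irx1. Evx2, which lies next to the HoxD cluster, had 88 body CpGs at 73.9% and 77.3% in DMSO, 63.1% and 60.0% after 0.2 µM, 51.0%, 53.1% and 52.1% after 2 µM and 69.5% and 71.6% after 10 µM. All groups were separate, and the drop was 14.0 points after 0.2 µM (SE 4.02, adjusted p = 0.00296) and 23.5 points after 2 µM (SE 3.67, adjusted p = 8.21e-05). The Barx1 body stood at 69.7% ± 1.13, 53.0% ± 4.74, 41.4% ± 4.11 and 50.3% ± 0.691, and its 0.2 µM call was lost without the first 0.2 µM library (adjusted p = 0.0675). Nkx2-1, which specifies thyroid, lung and ventral forebrain, had a body at 81.0% ± 2.04, 60.2% ± 9.79, 54.9% ± 5.84 and 69.9% ± 8.06, and its 0.2 µM call was lost without the first DMSO library (adjusted p = 0.0776). The body of Irx1, on 10 CpGs, stood at 63.0% ± 0.876 and 41.6% ± 5.63 and did not pass the test (adjusted p = 0.0978).

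Between 0.2 and 2 µM, 7 of 53 bodies were called higher (40.4% of all bodies): Lhx9, Dlx2, Vax2, Dlx3, Dlx4, Meox1 and Pitx3. The bodies of Nkx6-2 and Evx1 were called lower (0.489%). The median rise was 4.94 points over these bodies and 15.1 points over all. Without the first or the second 0.2 µM library 2 bodies were called higher. The Nkx6-2 body, on 24 CpGs, stood at 96.9% and 98.2% in DMSO, 63.2% and 76.6% after 0.2 µM, 34.9%, 49.7% and 25.1% after 2 µM and 79.7% and 76.7% after 10 µM. All 2 µM libraries were under the 0.2 µM ones, but the call (adjusted p = 0.0219) was lost without the first or the second 0.2 µM library (adjusted p = 0.0897 and 0.159) or the third 2 µM library (0.0582). The body of Evx1, on 41 CpGs, went from 67.3% ± 2.84 to 44.4% ± 4.39, 36.2% ± 3.26 and 57.6% ± 3.75, and its call from 0.2 to 2 µM was lost without either 0.2 µM library or the first or second 2 µM library (adjusted p from 0.0548 to 0.203).

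The body of Vax2, a ventral eye gene, stood at 35.2% and 42.8% in DMSO, 10.8% and 17.3% after 0.2 µM, 26.2%, 45.0% and 42.7% after 2 µM and 28.6% and 41.6% after 10 µM. After 2 µM its mean was back in the range of the DMSO libraries, though single 2 µM libraries lay below and above that range. The rise from 0.2 to 2 µM was 23.9 points (SE 6.74, adjusted p = 0.0326). Its call was lost without either 0.2 µM library or the second or the third 2 µM library (adjusted p from 0.0936 to 0.260). The flank of Pitx1 (chr13:55825044-55836190), the hindlimb gene, held 9 CpGs at 71.8% and 63.5% in DMSO, 15.4% and 17.0% after 0.2 µM, 53.9%, 44.4% and 45.7% after 2 µM and 55.0% and 65.4% after 10 µM. Its rise of 31.8 points from 0.2 to 2 µM (adjusted p = 0.0146) was the only call among 24 flanks in that comparison (17.2% of all flanks), and it was lost without the first or the second 0.2 µM library (adjusted p = 0.0801 and 0.112). The Pitx1 span also overlaps Catsper3, a protein-coding gene. Flanks fell in 17 of 24 after 0.2 µM (45.6%), 14 after 2 µM (34.0%) and 2 after 10 µM (12.3%). The DMSO median was 51.4% over these flanks and 20.6% over all flanks, and the shares were not matched for this level.

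A share of the windows in every class rose from 2 to 10 µM. Of 39 promoters 11 were called higher (7.45% of all promoters) and none lower (0.049%), of 16 ends 8 were higher (10.4%), of 53 bodies 21 were higher (34.2%) and of 24 flanks 3 (13.3%). Most promoters of all genes, 7632 of 10194, were under 20% in DMSO. At like DMSO levels the shares of promoters called higher were closer. They were 23.1% of 13 homeobox promoters and 13.2% of 911 of all genes at 20% to 50%. At 50% to 80% they were 29.4% of 17 and 28.7% of 905, and at 80% or more 33.3% of 6 and 45.7% of 746. The median rise was 8.82 points in promoters and 9.83 points in bodies. Evx1 had a body rise of 21.4 points (SE 3.71, adjusted p = 0.00282). This comparison and that of 2 with 0.2 µM share the 2 µM libraries. Without the first 10 µM library 10 bodies were called and without the second 6 were, while without the first 2 µM library 13 were. Promoters called higher numbered 3 without either 10 µM library and 7 without the third 2 µM library.

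After 10 µM against DMSO, the 11 promoters called lower stood between 53.6% (Msx1) and 94.8% (Gbx2) in DMSO, and Dlx1, called higher, at 12.7%. Among promoters and bodies, the 10 largest called changes were the promoters of Irx2, Gbx2, Barx1, Nkx6-2, Six2, Nkx6-1, Irx4 and Barhl2 and the bodies of Emx1 and Irx2. The ends of En2 fell by 23.9 points (adjusted p = 0.000109) and the flank of Nkx2-2, on 6 CpGs, by 22.4 points (adjusted p = 0.0164), both within the range of these 10. The Nkx2-2 call was lost without either DMSO library or the first 10 µM library (adjusted p from 0.0991 to 0.150), and both windows were named after their values were seen. The Emx1 body, in a gene of the cerebral cortex, stood at 54.9% and 61.1% in DMSO and 34.2% and 39.4% after 10 µM, and its call (adjusted p = 0.0151) was lost without the second DMSO library (0.206) or the first 10 µM library (0.170). The Irx2 body stood at 80.1% and 74.3% in DMSO and 65.2% and 46.9% after 10 µM, and its call (adjusted p = 0.00834) was lost without the first DMSO library (0.0976) or the second 10 µM library (0.0734). The bodies of Irx3 and Nkx2-9 were also called lower after 10 µM, Irx3 by 12.4 points and Nkx2-9 by 15.3 points, and lost their calls without the second DMSO library (adjusted p = 0.0591 and 0.0817) or the first 10 µM library (0.0824 and 0.317), Nkx2-9 also without the first DMSO library (0.303). The count of 10 bodies called was 5 without the first DMSO library, 2 without the second DMSO library and 4 without the first 10 µM library.

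The 3 least methylated bodies in DMSO were those of Dlx4, Pitx3 and Six6. Dlx4 stood at 9.68% and 11.7% in DMSO and 2.35% and 2.08% after 0.2 µM, and Pitx3, a gene of dopaminergic neurons and lens, at 12.0% and 14.3% and at 3.24% and 1.09%. Both were called lower after 0.2 µM (adjusted p = 0.00792 and 0.00114), and the call of Dlx4 was lost when any one DMSO or 0.2 µM library was left out (adjusted p from 0.0502 to 0.0966). Six6, on 8 CpGs, stood at 17.2% ± 2.69 and 11.3% ± 0.937 and did not pass. The Pitx3 span overlaps Elovl3, a protein-coding gene.

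Body and promoter were compared within the 38 homeobox genes that had both. The body was above the promoter by a median of 2.38 points in DMSO, in 20 of 38 genes, against 64.1 points and 86.3% of 5872 genes. The median difference was -4.93, 0.650 and 6.54 points after 0.2, 2 and 10 µM, against 17.7, 34.4 and 48.1 points over all genes. In limma on the difference per library, it fell from DMSO to 0.2 µM in 5 of 38 genes (76.5% of all genes) and rose in none (1.21%). The 5 homeobox genes were Lhx2, Dlx1, Dlx2, Gsc and Emx2. Over all genes the DMSO medians were 0.947% at promoters and 77.9% in bodies, so a falling body lowers the difference there. Shares at like promoter levels were not computed for this difference. After 2 µM it fell in Lhx2, Dlx1, Evx1, Nkx6-2 and Bsx (65.4%) and rose in Barhl2 and Six2 (1.69%). After 10 µM it fell in Dlx2 (21.2%) and rose in Emx2 (0.494%). The median difference of the homeobox genes therefore stayed near 0 at every dose, and most changes of single genes did not pass the test. Single genes differed widely in both directions, in DMSO from -39.2 points (Barhl2) to 53.4 points (Dlx1). A median near 0 thus does not mean that body and promoter were alike within a gene.

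**Figure D5:**
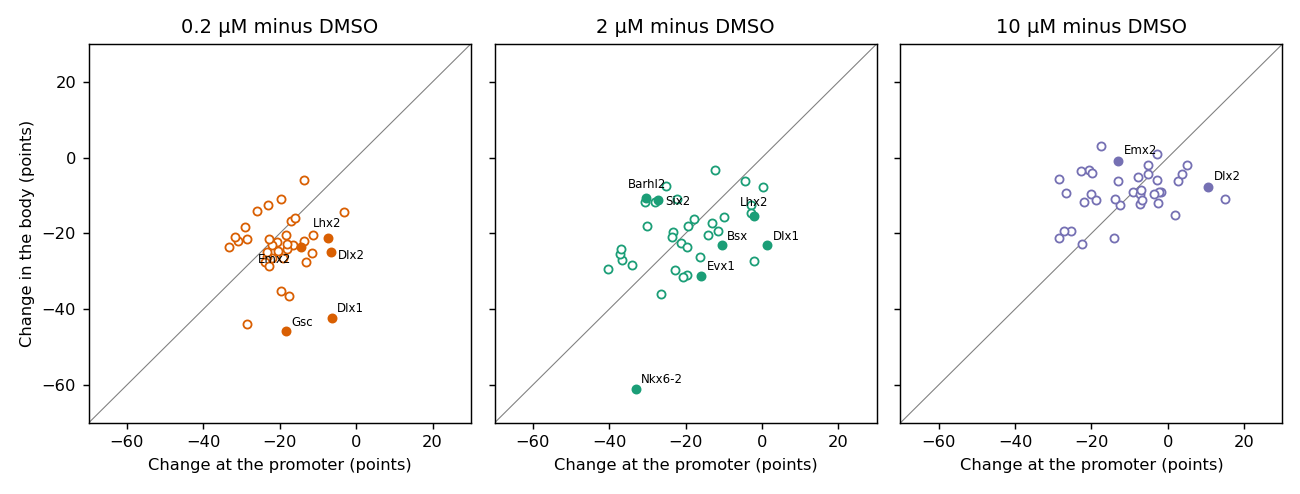
Change from DMSO in the body (percentage points, y axis) against the change at the promoter (percentage points, x axis) for the 38 homeobox genes with both, in a panel for each dose; the line marks equal change, and filled, named points passed the test of body minus promoter. The 5 filled genes after 0.2 µM all lie below the line, while Barhl2 and Six2 lie above it after 2 µM.

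In Lhx2 the body exceeded the promoter by 36.7 points in DMSO and 23.0 points after 0.2 µM, a change of -13.7 points (SE 3.21, adjusted p = 0.0053). In Nkx6-2 the difference was 3.00 points in DMSO, -0.676 points after 0.2 µM, -25.0 points after 2 µM and 9.11 points after 10 µM. The fall from 0.2 to 2 µM of 24.3 points passed (SE 6.11, adjusted p = 0.0194). So did the rise from 2 to 10 µM of 34.1 points (SE 6.11, adjusted p = 0.0118). In the test of reads, the Nkx6-2 body alone was not called from 2 to 10 µM (adjusted p = 0.479). With reads summed, that body stood at 50.6% after 2 µM and 59.0% after 10 µM, against unweighted means of 36.6% and 78.2%. From 0.2 to 2 µM the difference fell in Evx2, Evx1, Nkx6-2 and Nkx2-1 (0.664% of all genes) and rose in Gbx2, Barhl2 and Emx2 (40.4%), and from 2 to 10 µM it rose in Nkx6-2 and Emx2 (32.6%). For Gbx2 the rise was 26.1 points (SE 7.40, adjusted p = 0.0283). Barhl2 and Six2 had bodies 39.2 and 37.6 points below their promoters in DMSO. These counts moved with single libraries: the 5 falls after 0.2 µM became 1 without the second DMSO library and 3 without either 0.2 µM library, the 7 calls after 2 µM became 3 without either DMSO library, and the 7 calls from 0.2 to 2 µM became 1 without either 0.2 µM library and 4 without either DMSO library or any 2 µM library.

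Some of the families are given here by their ranges and counts. They stand beside the 24.5% of all promoters that fell after 0.2 µM and the 18.2% after 2 µM. For ends these shares were 34.9% and 24.3%. No family was tested against another, and these shares were not matched for DMSO level. The Irx promoters stood at 63.7% to 92.2% in DMSO and the Irx ends at 85.0% to 91.4%, and all 6 fell after 0.2 and after 2 µM. The 8 Nkx promoters ranged from 36.3% to 94.5%, and 7 fell after 0.2 µM and 6 after 2 µM. The LIM homeobox genes, which specify neuron types and parts of the limb and eye, had lower promoters, from 9.16% to 44.5% over 6 genes, of which 5 fell after 0.2 µM and 2 after 2 µM. The promoters of Dlx1 and Dlx2 stood at 12.7% and 22.9%, and 1 fell after 0.2 µM. The 4 promoters of Otx2, Emx1, Emx2 and Gsc, genes of the anterior head, stood at 53.3% to 72.6%, and 3 fell after 0.2 µM and 4 after 2 µM. Msx1 and Msx2, targets of BMP signalling, had promoters at 53.6% and 57.7%, and both fell after 0.2 and 2 µM. In Barhl1 the starts differed, at 61.8% ± 8.99 and 32.3% ± 2.80 in DMSO.

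Other gene lists give the level of comparison, with no test of one list against another. The promoters of 32 other developmental homeobox genes had a median of 63.0% in DMSO. It was 36.1% after 0.2 µM, 37.4% after 2 µM and 44.9% after 10 µM. Of the 32, 29 fell after 0.2 µM (24.5% of all promoters), 25 after 2 µM (18.2%) and 14 after 10 µM (7.5%). The median over all promoters was 0.947% in DMSO, and these shares were not matched for DMSO level. The promoters of 19 Hox genes stood at 57.0%, 28.9%, 35.8% and 55.8%, and those of 15 Sox and Tbx genes, other developmental factors, at 60.7%, 28.4%, 34.4% and 45.7%. The promoters of 19 homeobox genes that are expressed in many tissues had a median of 1.61% in DMSO, with bodies at 69.5%. Bodies of the other developmental homeobox, the Hox, and the Sox and Tbx genes had DMSO medians of 59.3%, 49.6% and 69.3%. The median share of the DMSO level left in their bodies after 0.2 µM was 56.9%, 47.6% and 50.3%. It was 54.2% for the genes described here, 38.7% for the broadly expressed homeobox genes and 34.0% over all genes.

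Coverage set how much could be said of a gene. Lhx2, Pitx1 and Six2 had the most CpGs, and Irx6, Dlx5 and Nkx2-6 the fewest. Dlx5, on 10 CpGs at its ends, went from 58.6% ± 2.85 to 32.2% ± 2.26, 30.1% ± 5.09 and 40.2% ± 3.68, and Nkx2-6, on 32 CpGs, from 58.7% ± 1.47 to 38.8% ± 1.99, 41.3% ± 9.67 and 43.6% ± 6.64. The 6 CpGs of Meox2 stood at 43.4% and 62.7% in DMSO, 22.8% and 35.7% after 0.2 µM, 23.0%, 37.6% and 37.7% after 2 µM and 48.1% and 39.4% after 10 µM, and were not tested. The spans of Gbx2, Lhx3, Nkx6-2, Six4, Pitx1 and Pitx3 overlap another protein-coding gene, and many others overlap a noncoding RNA gene, so a CpG can belong to more than 1 gene.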

How the data were processed

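RRBS calls of 9 libraries were used: DMSO (n = 2) and 5-aza-dC, 0.2 µM (n = 2), 2 µM (n = 3) and 10 µM (n = 2). Per the labels and the deposited values, each line gives a CpG with its methylated and total read counts and a score. The score was 1000 times the methylated share, rounded down, in every line. The submitters' processing notes name mm10. For the aligner and methylation caller, names were not given in the sources used. Per library, 1 or 2 lines of odd width and 18 to 68 with a repeated position were left out. Methylated counts were taken from the lines as given, not computed from the score.

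CpGs with at least 1 read in all 9 libraries (1096949) were assigned to genes and starts of RefSeq on GRCm38.p6. All 181463 shared CpGs inside the reference promoters lay on CG. Levels are unweighted means over CpGs. Summed reads per window were scaled to their effective size by the correlation of reads within 5 coverage classes (0.0225 to 0.0029). They were tested with a quasi-binomial model over the 4 groups, with dispersions moderated by limma 3.58.1 (R 4.3.3) and Benjamini-Hochberg adjustment over 24419 windows. Standard errors of changes are those of limma on the unweighted levels, so a test that weights CpGs by reads can differ from them. Body minus promoter was tested with limma over 5872 genes. Levels and figures were computed in Python 3.11.15. On simulated counts with 200 of the 24419 windows shifted by 1.5 in log odds, the test called 85 shifted and 5 other windows for 0.2 µM, 89 and 3 for 2 µM, 72 and 3 for 10 µM.

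Genes named in full were those with the 8 highest DMSO promoter levels, the 8 largest called body falls and 5 smallest body changes at 0.2 µM (the latter at 50% or more in DMSO), the 8 largest rises called in any comparison, the 10 largest calls among promoters and bodies at 10 µM, the 3 lowest bodies, and the 3 with most and 3 with fewest CpGs. The genes and lists were chosen with earlier results of these data known. Alternatives were other read and CpG minimums, summed reads, a 500-base promoter, limma on levels, the deepest 0.1% of CpGs removed, the outer start, unscaled reads, a replicate block and leaving out each library.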

Additional observations from a re-analysis of the deposited data

How the results depend on the processing

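All 55 genes rest on few reads per CpG, and stricter minimums left few windows. With at least 5 reads per CpG in every library (31 promoters, 42 bodies, 25 genes with both), body medians against DMSO were -20.6, -17.8 and -10.7 points at 0.2, 2 and 10 µM. Bodies called lower were 31, 26 and, from 0.2 to 2 µM, 0, and bodies called higher were 1 from 0.2 to 2 µM and 3 from 2 to 10 µM. Promoters called lower were 19, 18 and 5 against DMSO and 1 from 0.2 to 2 µM, and promoters called higher were 1 and 2. Body minus promoter was called in 3 genes at 0.2 µM, 4 at 10 µM and 3 from 0.2 to 2 µM. With at least 10 reads (7 promoters, 12 bodies, 4 genes with both), body medians were -14.9, -15.6 and -6.38 points and promoter medians -11.2, -2.04 and 0.472 points, the last reversed. Bodies called lower were 4 at 0.2 µM and 3 at 2 µM, and every other count of promoters, bodies and differences was 0.

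With the sign and level from summed reads the body medians were -20.7, -18.6 and -7.29 points. With limma on levels, bodies called higher were 12 from 2 to 10 µM and 4 from 0.2 to 2 µM, bodies called lower 3 at 10 µM and 1 from 0.2 to 2 µM, promoters called higher 3 from 2 to 10 µM and promoters called lower 1 from 0.2 to 2 µM. With at least 10 CpGs per window the promoter median at 10 µM was -10.8 points. With promoters of 500 bases on either side it was -10.7 points, bodies called lower from 0.2 to 2 µM were 1, promoters called lower there 5, promoters called higher from 2 to 10 µM 5, and body minus promoter was called in 0 genes at 10 µM and 3 from 0.2 to 2 µM. The ends of Dlx4 then differed from DMSO at 2 µM by 1.16 points, a reversal. With the outer start alone, an alternative chosen after the data were seen, 1 promoter was called higher from 0.2 to 2 µM. The cause of these differences was not tested.

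No pairing of the samples by library number was detected: same-numbered libraries had correlations of deviations from -0.0202 to 0.0215 over 14008 windows. In groups of 2 libraries the deviations mirror each other, and reads per CpG were few. This check therefore does not show that the samples were unpaired. With the replicate block, which leaves out the third 2 µM library, from 0.2 to 2 µM 1 body and 2 promoters were called lower and 1 promoter higher, 7 promoters were called higher from 2 to 10 µM, and body minus promoter was called in 0 genes at 10 µM and 2 from 0.2 to 2 µM.

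Leaving out each library in turn, the body medians ran from -24 to -22.3 points at 0.2 µM, -20.6 to -18.8 at 2 µM and -9.61 to -7.24 at 10 µM, and the promoter medians from -21.4 to -19.6, -22.9 to -20.3 and -12.2 to -9.08. Bodies called lower ran from 44 to 48, 34 to 40 and 2 to 11 against DMSO and 0 to 2 from 0.2 to 2 µM. Bodies called higher ran from 2 to 9 from 0.2 to 2 µM and 6 to 20 from 2 to 10 µM. Promoters called lower ran from 25 to 33, 22 to 28, 8 to 11 and 1 to 8 in the same order. Promoters called higher ran from 0 to 2 and 3 to 10. Body minus promoter ran from 1 to 7, 3 to 9, 0 to 2, 1 to 9 and 1 to 3. Without the second 10 µM library the Dlx1 promoter changed sign, to -0.527 points against DMSO and -1.84 points against 2 µM, where it was 30.46 and 29.15 points without the first. Of the single values of named windows, 2150 kept direction and call, 320 lost the call and 3 reversed. A lone library left in a group was taken to vary like the other groups.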
